A study of Mus musculus with 65 samples.

Results

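The 10 genes described here, Mrc1, Cd163, Lyve1, F13a1, Pf4, Ms4a7, Ccr2, Ly6c2, Lyz2 and Cybb, are markers of macrophages at the vessels and borders of the central nervous system and of blood monocytes. They were chosen by symbol from what is known of these cells and with earlier results of these data in view, and all 10 were found among the 50686 genes of the deposited count table. Because they were chosen with results known, the tests below describe single genes among all genes tested and are no independent support for the choice. The questions were whether the genes are spared by the drug that removes microglia, and whether they exceed their control level when microglia return or after lipopolysaccharide (LPS).

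RNA of 65 adult C57BL/6J mouse retinas in 16 groups was sequenced. CD (n = 5) received the AIN-76A control diet. A CD mouse carries the label 2M in place of a replicate number, and the labels of the 2-month repopulation mice carry 2M too. Whether this mouse differed from the other CD mice in age or time on the diet is not stated. The depletion groups received the same diet with PLX5622, an inhibitor of the receptor CSF1R on which microglia depend, for 2, 5, 7, 10, 14 or 21 days (DEP2 to DEP21, n = 4 each, but 3 in DEP5). The repopulation groups were returned from PLX5622 to the control diet for 3, 5, 7, 10, 14 or 21 days or 2 months (REPOP3 to REPOP60, n = 4 each, but 6 in REPOP7), LPSCD (n = 3) received LPS on the control diet, and LPSREPOP (n = 4) received LPS after repopulation. The labels of LPSREPOP give PLX5622 and LPS without a day of repopulation, and the sources used here do not say how long after LPS the retinas were taken. PLX5622 was given in the diet, so cells outside the retina met it too. Clearing of blood from the vessels before these retinas were taken is not described, so the tissue can hold blood cells.

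The central nervous system holds macrophages other than microglia. They sit around vessels and in the meninges, scavenge through receptors such as those encoded by Mrc1 (the mannose receptor CD206) and Cd163 (the haemoglobin scavenger receptor), and, like microglia, carry CSF1R. Classical monocytes circulate in blood, carry CCR2 and Ly6C, and enter inflamed tissue along CCL2. Lyz2 (lysozyme M) and Cybb (gp91phox, the catalytic subunit of the phagocyte NADPH oxidase) are made by myeloid cells in general and can also be found in activated microglia.

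Total counts ranged from 5106429 to 8760443 per mouse (median 7944665), and the lowest library was REPOP21 replicate 1. The sample titles end in RE (39 mice) or re (26 mice), which the labels do not explain. CD held 3 RE and 2 re mice, with the mouse labelled 2M among the re mice. REPOP60, LPSCD and LPSREPOP held only re mice, so values are also given within a suffix where a result rests on them. Levels below are given as CPM of the TMM-scaled library unless counts are named, and a gene was called at a false discovery rate (FDR) under 0.01 over all tested genes where it also changed by more than 1 on the log2 scale.

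At this depth the label of the gene set was met by few reads. Of the 10 genes, 4 (Cd163, Pf4, Ccr2 and Ly6c2) had at most 3 counts in every mouse, and their sums over the 65 mice were 19, 8, 12 and 9 counts. Mrc1 had 57 counts in 29 mice and F13a1 (the A subunit of coagulation factor XIII) 65 counts in 22 mice. Ms4a7, a membrane protein of the MS4A family, had 180 counts in 58 mice. Cybb had 224 counts in 46 mice and Lyz2 had 642 in 63 mice. Only Lyve1, a hyaluronan receptor of lymphatic endothelium and of some vessel-associated macrophages, was counted in every mouse, with 8012 counts in all. In the 58 mice without LPS, Mrc1, Cd163, F13a1, Pf4, Ccr2 and Ly6c2 were thus at or near 0 by counts. None of them passed 4 counts in any of these mice. Lyve1 had a count in 58 of these mice, Lyz2 in 56, Ms4a7 in 52 and Cybb in 39. For Ly6c2 the FPKM differed from the counts (below).

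Compared per length in CD, the deposited FPKM of Lyve1 ranged from 3.80 to 5.52 (median 4.79). Lyz2 ranged from 0.142 to 0.785 FPKM (median 0.335). Cybb was listed at 0 in 4 of the 5 CD mice and at 0.0351 FPKM in the other. The highest CD values were 0.0329 for Mrc1, 0.0626 for Ms4a7 and 0.0400 for Ccr2, and Cd163, F13a1 and Pf4 were listed at 0 in all 5 mice. Ly6c2 was listed at 0 in 4 CD mice and at 2.02 FPKM in the other, a value its counts do not share (below). The lowest Lyve1 value thus lay above the highest value of each other member in CD.

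**Figure D1:**
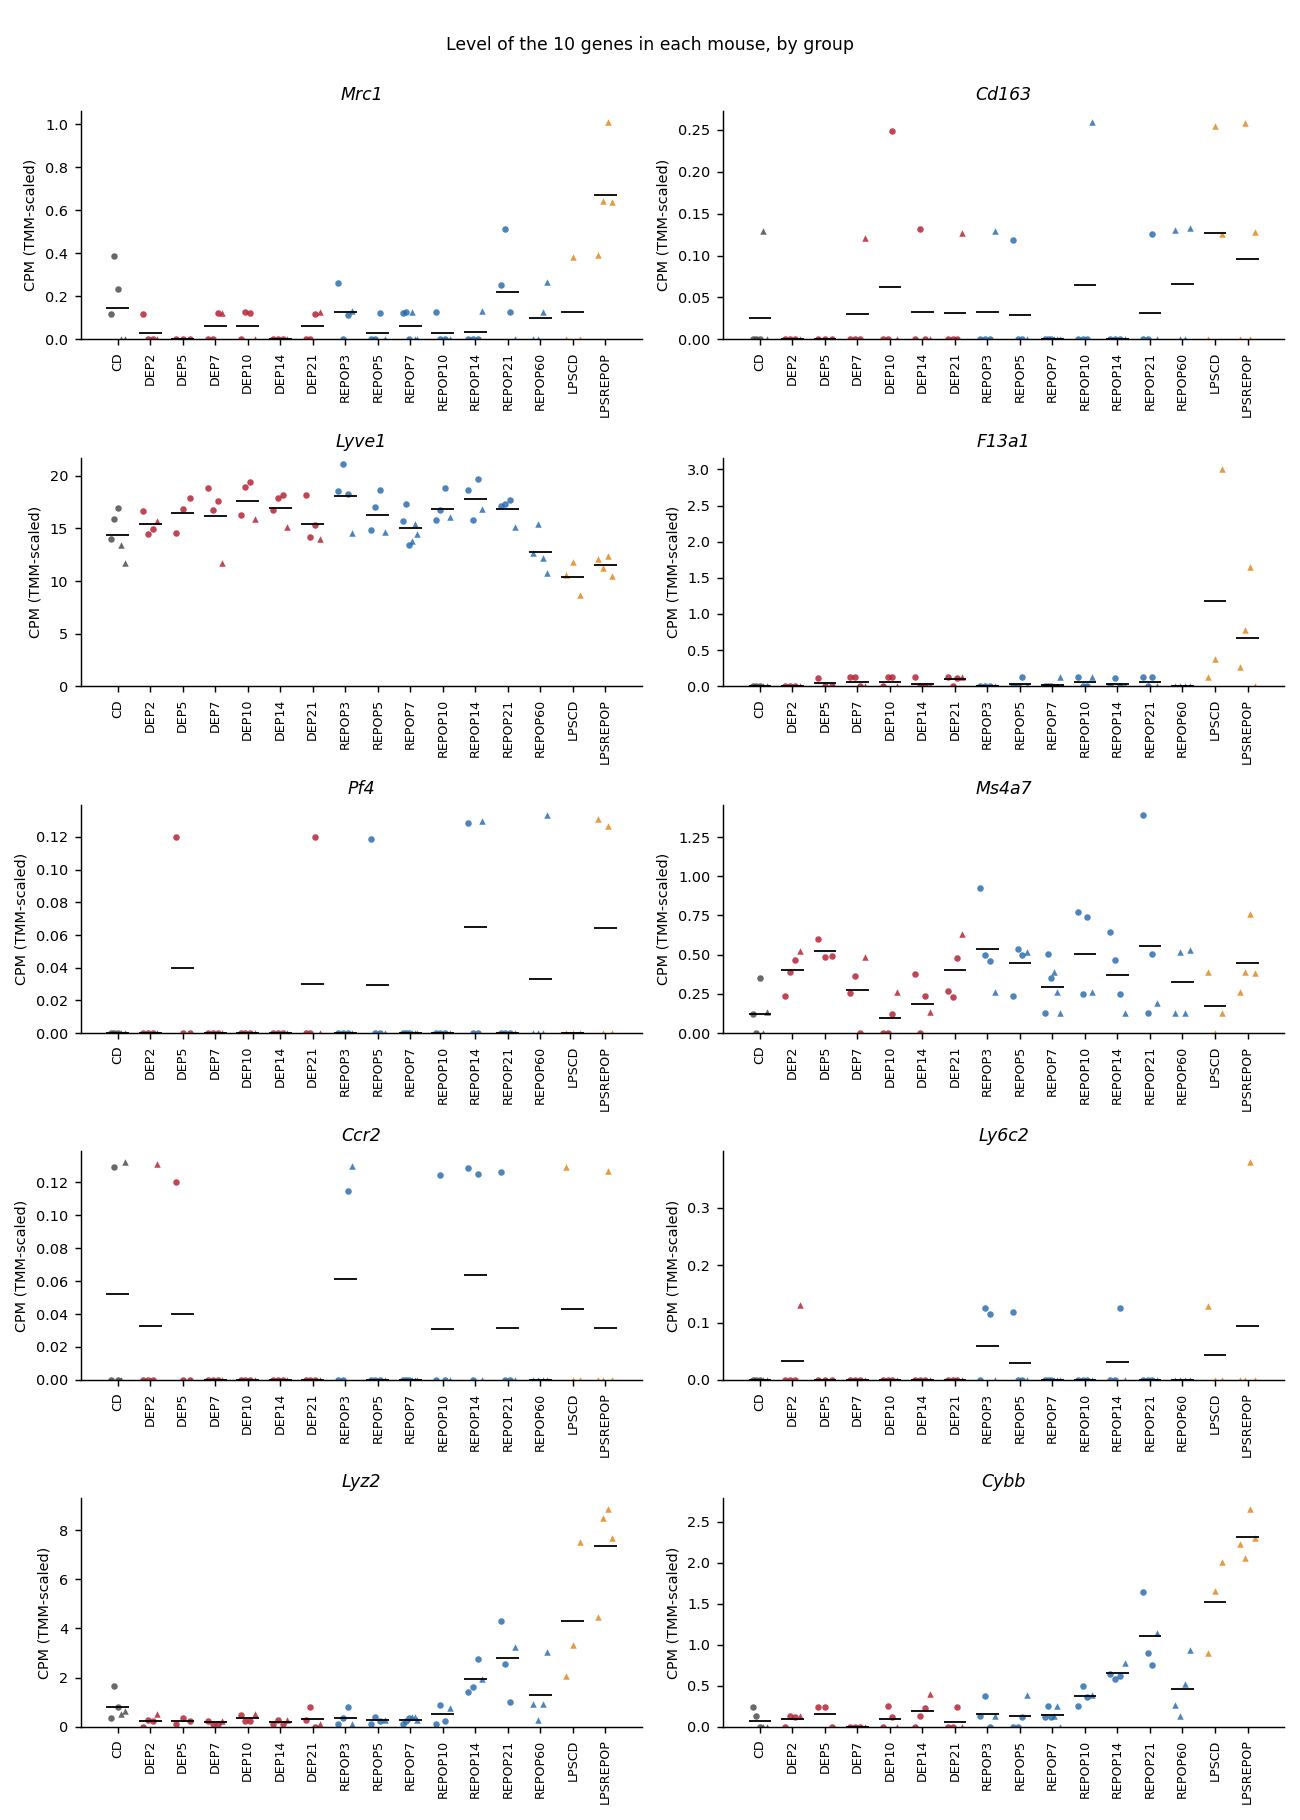
Level of each gene in each of the 65 mice (vertical axis, CPM on a scale of its own per panel; horizontal axis, group). Circles are RE mice, triangles re mice and lines group means. Lyve1 is between 8.65 and 21.1 CPM in every mouse. Lyz2 and Cybb are low through depletion and early repopulation and high in REPOP21 and after LPS, but Cybb is low in CD as well (mean 0.0733 CPM). Most points of Cd163, Pf4, Ccr2 and Ly6c2 are at 0.

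Lyve1 did not follow the other genes. It was 14.4 ± 2.03 CPM in CD (SD, n = 5), where the mice had 104, 118, 123, 144 and 89 counts. Over all depletion mice it was 16.4 ± 1.89 CPM (SD, n = 23), and it lay above every CD mouse in 8 of them and below every CD mouse in 1. It was 16.4 ± 2.06 CPM in early repopulation (REPOP3 to REPOP10, n = 18) and 15.8 ± 2.71 CPM in late repopulation (REPOP14, REPOP21 and REPOP60, n = 12). After LPS the counts were 82, 93 and 69 in LPSCD and 92, 87, 98 and 82 in LPSREPOP, or 10.4 ± 1.60 and 11.5 ± 0.857 CPM. Fitted log2 fold changes of Lyve1 reached an unadjusted p under 0.05 in DEP10 (0.29, FDR = 0.942), REPOP3 (0.33, FDR = 0.969), REPOP14 (0.30, FDR = 0.993), LPSCD (-0.48, FDR = 0.117) and LPSREPOP (-0.32, FDR = 0.217), and none was called. The suffix moved with these values. Lyve1 was 15.6 CPM in the RE mice and 12.6 CPM in the re mice of CD, and both LPS groups are all re. With the suffix as a covariate the change of Lyve1 in LPSREPOP was -0.13. In LPSCD its change was -0.48 to -0.29 over 8 alternative fits, the suffix covariate among them. The 5 genes of most similar pattern over the 65 mice were Ublcp1, Zfp40, Rcvrn (recoverin, a calcium sensor of photoreceptors), Chmp1b and Gm16055, with r from 0.61 to 0.64 after centring within each suffix. Against the sum of 25 microglia genes the r of Lyve1 was -0.44, and against Mrc1 and Cd163 it is not read, as both are near 0.

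The drug period was described first by day and then pooled. With edgeR, none of the members was called against CD on any day of depletion (5 tested each on days 2, 5, 7, 14 and 21 and 6 on day 10), nor with DESeq2. Of all tested genes 0.0334%, 0.0345%, 0.0375%, 0.0376%, 0.0335% and 0.0337% were called on days 2, 5, 7, 10, 14 and 21. At an unadjusted p under 0.05 there were 2, 2, 1, 1, 2 and 2 members, beside 2.67%, 6.48%, 3.98%, 3.52%, 2.96% and 2.87% of all genes. A gene was tested where at least a share of 0.5 of the mice of either group had a count, so a member absent from both groups of a comparison was not tested. Cd163, F13a1, Pf4, Ccr2, Ly6c2 and Cybb were each counted in at most 2 of the 5 CD mice. Against CD these genes could thus be tested only where the other group held them, which favours finding them higher. All comparisons with CD share the same 5 CD mice.

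Lyz2 had fewer counts under the drug than in CD, and the fit did not call it. In CD the mice had 4, 3, 13, 7 and 5 counts of Lyz2, the highest in replicate 3, or 0.806 ± 0.516 CPM (SD, n = 5). The 23 depletion mice had 0 to 7 counts (median 2), or 0.259 ± 0.183 CPM, and 18 of them lay below every CD mouse. The summed level was 0.323 of that in CD (exact 95% interval of the counts 0.202 to 0.522, counting error only). In the pooled fit the log2 fold change was -1.58 (SE 0.38, FDR = 0.0819), and Lyz2 was not called. By day it was -1.63 on day 2, -1.66 on day 5, -2.03 on day 7 and -2.0 on day 14, with FDR from 0.670 to 0.999. On days 10 and 21 it was -1.07 and -1.34, and the unadjusted p of edgeR missed 0.05 (0.0569 and 0.0582). The value leaned on CD replicate 3, without which the pooled change was -1.14 (FDR = 0.476). It was -1.91 among RE mice and -0.79 among re mice. In bulk RNA, fewer cells of a type and less RNA per cell cannot be told apart.

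Mrc1 had 0, 1, 3, 2 and 0 counts in CD and 7 counts in all over the 23 depletion mice, with at most 1 per mouse. The ratio of summed levels to CD was 0.251 (exact 95% interval 0.0723 to 0.905), the fitted log2 fold change -1.64 (FDR = 0.775), and in DEP14, where all 4 mice had 0 counts, -3.40 (FDR = 0.946). Both rest on 6 counts in CD.

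The summed levels of Ms4a7 and Cybb under the drug did not lie below those in CD. Ms4a7 had 0, 1, 0, 3 and 1 counts in CD and 4, 2, 3 and 4 counts in DEP2. In DEP5 it had 5, 4 and 4 counts, above every CD mouse, and over all 23 depletion mice it ranged from 0 to 5. The ratio of summed levels, depletion to CD, was 2.46 (exact 95% interval 0.993 to 7.85). The log2 fold change of Ms4a7 was 1.57 in DEP2 (FDR = 0.999), 1.95 in DEP5 (FDR = 0.670) and 1.57 in DEP21 (FDR = 1.0), and DEP10 had 2, 0, 0 and 1 counts, within the CD range. Cybb had 0, 2, 1, 0 and 0 counts in CD and 18 counts over 23 depletion mice (at most 3), a ratio of 1.29 (interval 0.377 to 6.85) whose interval spans a loss and a gain, so a change of that size was not detectable at this depth. Neither gene was compared with Lyz2 by a test of the difference.

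Of the remaining genes, F13a1 had 0 counts in all 5 CD mice, which allows up to 0.0750 CPM, and 9 counts in the 23 depletion mice, at most 1 per mouse. In DEP21 its fitted log2 fold change had an unadjusted p = 0.0460 and FDR = 1.0 on counts of 1, 1, 0 and 1. Over the depletion mice, Cd163 had 5 counts, Pf4 2, Ccr2 2 and Ly6c2 1. No fold change is given for them.

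In the pooled fit of all depletion mice against CD, 4 members could be tested (Lyve1, Ms4a7, Mrc1 and Lyz2) and 0 were called by edgeR or DESeq2, beside 0.18% of all 22767 genes, all of them lower. At an unadjusted p under 0.05 there were 2 members, Mrc1 and Lyz2, beside 6.01% of all genes. Among the 25 microglia genes in the same fit, 20 fell, and the median log2 fold change was -4.03 against -0.0017 over all genes. The summed level of the microglia genes was 85.6 to 108 CPM in CD and 27.7 to 39.4 CPM in depletion, with no overlap.

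In early repopulation Lyz2 was 0.348 ± 0.238 CPM (SD, n = 18), beside 0.259 ± 0.183 in depletion and 0.806 ± 0.516 in CD. The mice had 1, 1, 3 and 7 counts in REPOP3, 2, 1, 3 and 2 in REPOP5, 3, 3, 2, 1, 2 and 3 in REPOP7 and 6, 1, 7 and 2 in REPOP10. Each of the 4 groups overlapped the CD range, and 11 of the 18 mice lay below every CD mouse. The pooled ratio to CD was 0.438 (exact 95% interval 0.275 to 0.705) and the log2 fold change -1.17 (FDR = 0.914). By day, REPOP5 (-1.61) and REPOP7 (-1.40) had an unadjusted p under 0.05, with FDR of 0.881 and 0.999.

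Cybb had at most 3 counts in every mouse of REPOP3, REPOP5 and REPOP7, and 3, 2, 4 and 3 counts in REPOP10. All 4 REPOP10 mice lay above every CD mouse in CPM, 0.378 ± 0.0984 against 0.0733 ± 0.108 (SD). The ratio to CD was 5.05 (interval 1.36 to 27.9, on 12 and 3 counts), and the fitted change had FDR = 0.683. Ms4a7 in early repopulation was 3.42 times its CD level (interval 1.39 to 10.9), with 2, 7, 4 and 4 counts in REPOP3 and 4, 2, 4 and 4 in REPOP5. Its log2 fold change was 1.96 in REPOP3, 1.71 in REPOP5, 1.88 in REPOP10 and 1.65 pooled, with FDR from 0.683 to 0.969, while in REPOP7 it was 1.14 and the unadjusted p of edgeR missed 0.05 (0.115).

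By edgeR and by DESeq2 no member was called in REPOP3 (7 tested), REPOP5 (5), REPOP7 (5), REPOP10 (6) or the pool of these mice (5), where 0.0377%, 0.0336%, 0.0594%, 0% and 0.096% of all genes were called. Members at an unadjusted p under 0.05 numbered 2, 2, 1, 2 and 2, beside 3.4%, 3.57%, 2.86%, 6.15% and 3.63% of all genes. The microglia sum was 27.9 to 55.0 CPM in these 18 mice, below every CD mouse.

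In REPOP14 and REPOP21 the mean levels of Lyz2 and Cybb lay above those in CD, with no call against CD, and REPOP60 overlapped CD for both. Lyz2 had 15, 11, 14 and 22 counts in REPOP14 and 17, 34, 20 and 8 in REPOP21, or 1.93 ± 0.583 and 2.78 ± 1.38 CPM (SD, n = 4 each) against 0.806 ± 0.516 in CD. Above every CD mouse were 2 of the REPOP14 and 3 of the REPOP21 mice, so both groups overlapped CD. REPOP60 had 7, 2, 7 and 23 counts, or 1.29 ± 1.22 CPM, with replicate 4 above and replicate 2 below every CD mouse (FDR = 0.559). The ratio of summed levels to CD was 2.42 in REPOP14 (interval 1.55 to 3.83) and 3.42 in REPOP21 (interval 2.24 to 5.32). Fitted log2 fold changes were 1.25 in REPOP14 (SE 0.39, FDR = 0.993) and 1.75 in REPOP21 (SE 0.44, FDR = 0.513).

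Cybb had 6, 5, 5 and 5 counts in REPOP14 and 6, 13, 7 and 6 in REPOP21, or 0.657 ± 0.0858 and 1.11 ± 0.389 CPM. All 8 of these mice lay above every CD mouse. REPOP60 had 2, 1, 4 and 7 counts, or 0.461 ± 0.353 CPM, and overlapped CD. As CD held 3 counts in all, the ratio to CD was wide, 8.73 in REPOP14 (interval 2.61 to 45.7) and 14.8 in REPOP21 (interval 4.62 to 75.3). In the test against CD, Cybb in REPOP21 had the lowest p of all 23739 genes, with FDR = 0.513. Same-numbered REPOP21 and CD mice are different mice that shared a suffix, so their correlation cannot be told apart from the suffix. With the replicate number as a block, Cybb was called in REPOP21 (log2 fold change 3.37, FDR = 0.00870). With the suffix as a covariate its FDR was 0.0110. In REPOP14 the FDR was 0.993 and in REPOP60 0.233.

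Of the other members, Ms4a7 had a higher summed level than CD and was not called. It had 1, 5, 4 and 2 counts in REPOP14, 1, 11, 1 and 4 in REPOP21 and 1, 4, 1 and 4 in REPOP60, and 6 of these 12 mice lay above every CD mouse. The ratio to CD was 4.70 in REPOP21 (interval 1.67 to 16.3) and 3.41 over the 3 groups (interval 1.34 to 11.1). The log2 fold change in REPOP21 was 2.07 (FDR = 0.513). Without REPOP21 replicate 2, the mouse of 11 counts, it was 1.09 (FDR = 0.799) and the ratio 2.29 (interval 0.582 to 9.47), and without CD replicate 4, which held 3 of the 5 CD counts of Ms4a7, the ratio was 9.26 (interval 2.20 to 82.6). Mrc1 had 0, 2, 4 and 1 counts in REPOP21, a ratio to CD of 1.61 (interval 0.464 to 5.81). F13a1, Cd163 and Pf4 had 3 counts each over the 12 late mice, and so had Ccr2, while Ly6c2 had 1.

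Against CD no member was called by edgeR or DESeq2 in REPOP14 (7 tested), REPOP21 (6), REPOP60 (6) or their pool (5), and neither was any other gene by edgeR (0% in each). At an unadjusted p under 0.05 there were 3, 3, 1 and 3 members, beside 2.24%, 9.58%, 15.4% and 3.02% of all genes. In the pool those 3 were Cybb (log2 fold change 3.04, FDR = 1.0, the lowest p of 23075 genes), Ms4a7 (1.64) and Lyz2 (1.28). Without REPOP60 the pooled FDR of Cybb was 0.563, and with the suffix as a covariate 0.0600.

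Late repopulation was also set against depletion, a comparison that leaves out the CD mice. Lyz2 rose from 0.259 ± 0.183 CPM (SD, n = 23) to 2.0 ± 1.19 CPM (SD, n = 12), a ratio of summed levels of 7.61 (interval 5.51 to 10.7) and a log2 fold change of 2.86 (SE 0.30, FDR = 7.45e-09). Cybb rose from 0.0974 ± 0.119 to 0.742 ± 0.397 CPM, a ratio of 7.55 (interval 4.43 to 13.5) and a log2 fold change of 2.73 (SE 0.38, FDR = 8.37e-06). Of 5 members tested these 2 were called, both higher, beside 0.239% of all 22623 genes, and 3 members (with Mrc1, log2 fold change 1.34, FDR = 0.455) had an unadjusted p under 0.05, beside 9.13% of all genes. Cybb had a count in 11 of the 23 depletion mice, under the share of 0.5. It entered this test only through the late mice, so its direction is no separate support. Among RE mice Lyz2 and Cybb were both called, with log2 fold changes of 3.16 and 2.96. Among re mice Lyz2 was called (2.25, FDR = 0.000857) and Cybb was not (2.37, FDR = 0.0703). Without REPOP60, or without the lowest library, both remained called, but the stricter gene filter filterByExpr left both genes out of the test, so that 0 members were called. Ms4a7 had a ratio of 1.39 here (interval 0.899 to 2.12).

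Microglia genes moved in the same comparison. Of the 25, 19 rose, and their median log2 fold change was 3.60 against 0.0078 over all genes. Their sum was 65.4 to 82.3 CPM in late repopulation, above every depletion mouse and below every CD mouse. The means of Lyz2 and Cybb in late repopulation thus lay above those in CD while that sum lay below its own. The sum is a coarse measure, as it stayed at 27.7 to 39.4 CPM in depletion and so fell less than the median listed gene (log2 fold change -4.03). In late repopulation against CD that median was -0.35. The part of the microglia in the level of either gene was not tested.

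**Figure D2:**
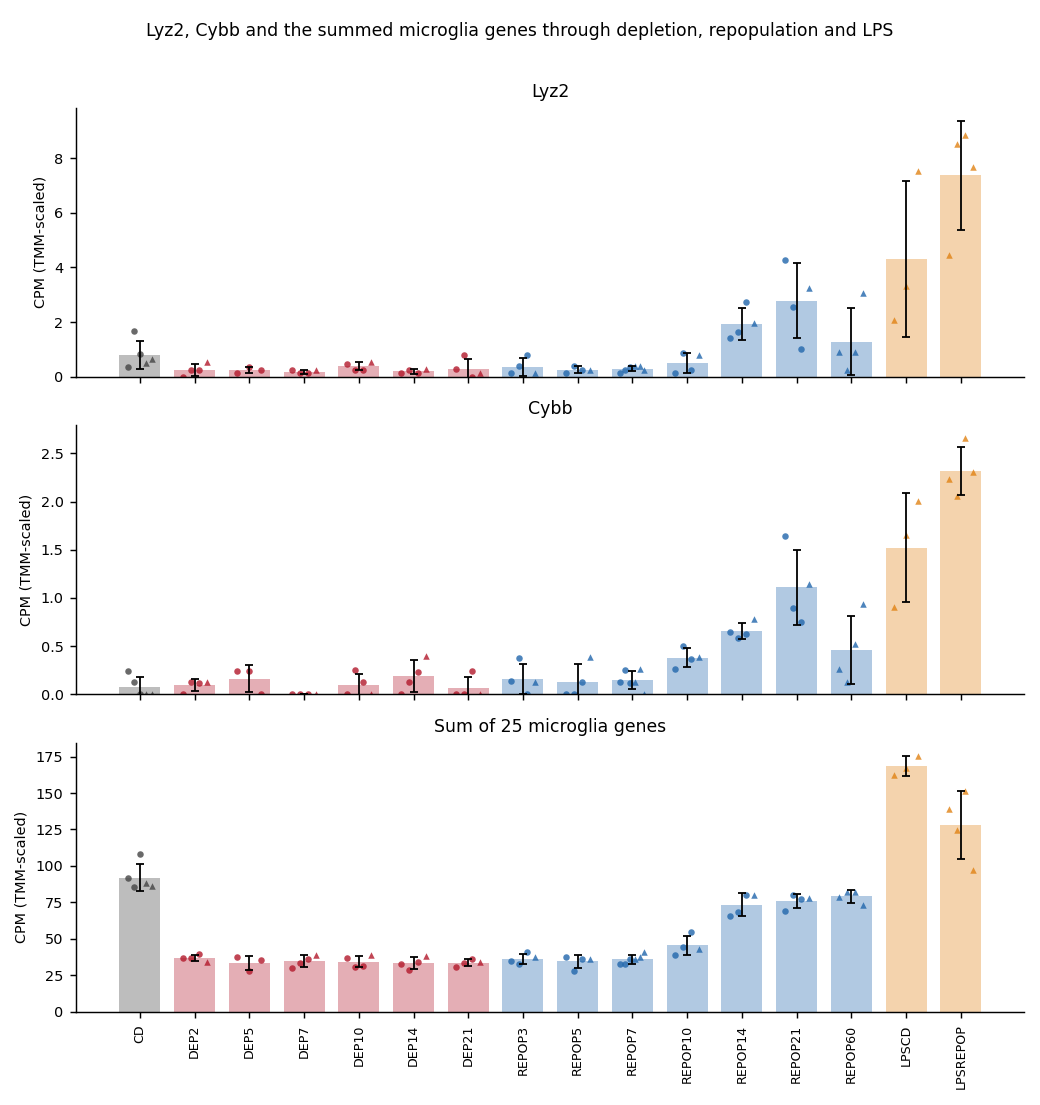
Lyz2, Cybb and the sum of 25 microglia genes by group (vertical axes, CPM; bars, group means; error bars, SD, not drawn below 0; points, mice, with circles for RE and triangles for re). Lyz2 and Cybb have their highest means in LPSREPOP (7.38 and 2.31 CPM), while the microglia sum is highest in LPSCD.

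After LPS Lyz2 and Cybb had their highest levels. Lyz2 had 16, 26 and 60 counts in LPSCD, 4.30 ± 2.86 CPM (SD, n = 3), and 34, 66, 70 and 60 counts in LPSREPOP, 7.38 ± 2.01 CPM (SD, n = 4). Cybb had 7, 13 and 16 counts in LPSCD, 1.52 ± 0.563 CPM, and 17, 16, 21 and 18 in LPSREPOP, 2.31 ± 0.250 CPM. Every LPS mouse lay above every CD mouse for both genes.

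In LPSREPOP both rose against CD, from which it differed by PLX5622 and repopulation as well as by LPS. The parts of these treatments cannot be told apart in this comparison, and LPSREPOP was not fitted against repopulated mice without LPS. In REPOP21, without LPS, the means were 2.78 CPM for Lyz2 and 1.11 CPM for Cybb. Against CD, the log2 fold change of Lyz2 in LPSREPOP was 3.18 (SE 0.31, FDR = 1.13e-05), a ratio of 9.25 (interval 6.37 to 13.8), and Cybb had FDR = 8.85e-05 and a ratio of 30.9 (interval 10.2 to 153, on 72 and 3 counts). These 2 of 8 members tested were called, both higher, beside 0.218% of all genes, and both were called in all 8 other models tried and in all 9 fits that left out 1 mouse. Cybb had a count in 2 of the 5 CD mice and entered this test only through LPSREPOP, so its direction is no separate support. Set against the 2 re mice of CD alone, the FDR was 0.000263 for Lyz2 and 0.00255 for Cybb. Members at an unadjusted p under 0.05 numbered 6, beside 18.1% of all genes. The other 4 were Lyve1 (above), F13a1, Mrc1 and Ms4a7.

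In LPSCD the fit called no member of 7 tested, beside 0.165% of all genes, and 4 had an unadjusted p under 0.05, beside 22.7% of all genes. Cybb had a ratio of 20.4 (interval 6.43 to 103) with FDR = 0.0103, and Lyz2 a log2 fold change of 2.40 (SE 0.46, FDR = 0.0209) with a ratio of 5.41 (interval 3.60 to 8.32). The calls in LPSCD changed with the setting. DESeq2 called Lyz2 (FDR = 0.000680), a fit of all 16 groups called Cybb, F13a1 and Lyz2, and without LPSCD replicate 1 Cybb and Lyz2 were called. Without LPSCD replicate 3, the mouse of 60 Lyz2 counts, the change of Lyz2 was 1.72 (FDR = 0.239), and with the suffix as a covariate its FDR was 0.183.

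F13a1 had 1, 3 and 24 counts in LPSCD and 2, 6, 13 and 0 in LPSREPOP, against 0 in every CD mouse and at most 1 in the 58 mice without LPS. Set against the floor of 3 counts over the CD group, the summed level was 15.8 times the floor in LPSCD and 9.0 times in LPSREPOP, and the exact 95% lower limits of the ratio to CD were 12.05 and 6.70. The FDR was 0.0492 and 0.0535. Of the 28 counts in LPSCD, 24 came from replicate 3, without which the level was 3.42 times the floor (lower limit 1.69, FDR = 0.353). Of the 21 counts in LPSREPOP, 13 came from replicate 3, without which it was 4.60 times the floor (lower limit 2.94, FDR = 0.246). F13a1 shares 74 bases of exon with the antisense gene Gm30489, and whether the counting used strand is not given in the sources used here.

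Mrc1 had 0, 3 and 0 counts in LPSCD and 3, 5, 8 and 5 in LPSREPOP, 0.672 ± 0.255 CPM (SD, n = 4) in the latter. Its ratio to CD was 4.50 in LPSREPOP (interval 1.76 to 13.6, FDR = 0.122) and 0.848 in LPSCD (interval 0.137 to 3.97). LPSREPOP and LPSCD differed by a ratio of 5.31 for Mrc1 (interval 1.58 to 27.8, log2 fold change 2.27, FDR = 0.617) and 1.71 for Lyz2 (interval 1.35 to 2.18, log2 fold change 0.78, FDR = 0.617). Without LPSCD replicate 3 the latter log2 fold change was 1.45. Ms4a7 had 3, 0 and 1 counts in LPSCD and 2, 3, 6 and 3 in LPSREPOP (log2 fold change against CD 1.73, FDR = 0.217). Cd163 had 3 counts in each LPS group, Ccr2 had 1 in each, Ly6c2 had 1 in LPSCD and 3 in LPSREPOP, and Pf4 had 2 in LPSREPOP and 0 in LPSCD. Between LPSREPOP and LPSCD no member of 8 tested was called by edgeR or DESeq2, beside 0% of all genes, and 2 had an unadjusted p under 0.05, beside 8.05% of all genes.

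Other cells moved after LPS as well. The microglia sum was 162 to 176 CPM in LPSCD and 97 to 151 CPM in LPSREPOP, against 85.6 to 108 in CD. The sum of 7 erythrocyte genes was 3.61 to 11.9 CPM in CD, 1.13 to 4.96 in LPSCD and 0.262 to 2.56 in LPSREPOP, where Hbb-bs fell (log2 fold change -3.69, FDR = 0.00285). The 12 endothelium genes summed to 399 to 447 CPM in CD, 437 to 490 in LPSCD and 465 to 490 in LPSREPOP, and 3 of them rose in each LPS group, with Cldn5 and Ly6c1 in both. The 12 neutrophil genes summed to 18.5 to 22.2 CPM in CD, 20.7 to 28.5 in LPSCD and 18.6 to 39.1 in LPSREPOP, with none called in 10 and 9 tested. The part of these cells in the changes of the members was not tested.

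**Figure D3:**
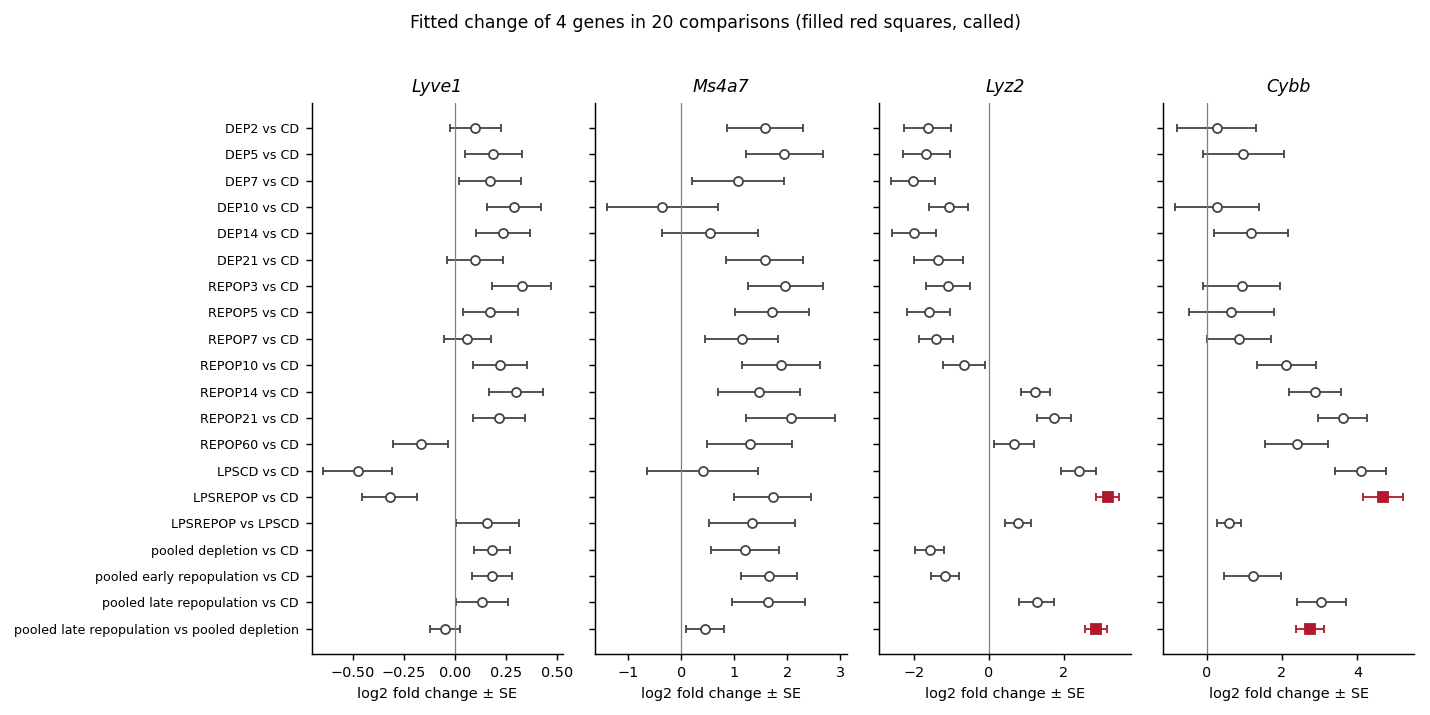
Fitted log2 fold change with its SE (horizontal axes) of Lyve1, Ms4a7, Lyz2 and Cybb in the comparisons where each was tested (vertical axis). Filled red squares mark the called values, Lyz2 and Cybb in LPSREPOP against CD and in late repopulation against depletion, and values of Cybb against CD rest on 3 CD counts.

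Lyz2 and Cybb both rose in late repopulation against depletion and in LPSREPOP against CD, and their promoters are shown for that reason. Under the drug the ratio to CD was 0.323 for Lyz2 (interval 0.202 to 0.522) and 1.29 for Cybb (interval 0.377 to 6.85). Lyz2 lies on chr10, 117277331 to 117282321 (minus strand, GRCm38), with 4 exon blocks, and Cybb on chrX, 9435252 to 9487771 (minus strand), with 15 exon blocks in the GENCODE M21 model. Over the 65 mice the r of their log2(CPM + 1), centred within each suffix, was 0.89. This is a description, and the mice share groups and library depth. The capitals mark GAGGAA or its reverse complement TTCCTC, a core of sites bound by the myeloid factor PU.1. At least 1 match was found in 28.1% of all 32544 promoters searched on both strands, in Cybb at 1 place, with its first base 9 bases past the start site, and in Lyz2 at none, and neither says anything about binding. The sequences are those of RefSeq (GRCm38.p6, 250 bases before to 50 after the start, minus strand), chr10:117282223-117282522 for Lyz2 and chrX:9469275-9469574 for Cybb.
Lyz2: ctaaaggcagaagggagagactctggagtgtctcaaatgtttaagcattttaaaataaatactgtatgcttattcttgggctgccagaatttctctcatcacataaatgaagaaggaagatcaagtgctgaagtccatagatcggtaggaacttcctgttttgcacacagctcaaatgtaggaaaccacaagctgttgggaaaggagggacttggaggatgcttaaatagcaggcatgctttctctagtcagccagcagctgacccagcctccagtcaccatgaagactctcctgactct
Cybb: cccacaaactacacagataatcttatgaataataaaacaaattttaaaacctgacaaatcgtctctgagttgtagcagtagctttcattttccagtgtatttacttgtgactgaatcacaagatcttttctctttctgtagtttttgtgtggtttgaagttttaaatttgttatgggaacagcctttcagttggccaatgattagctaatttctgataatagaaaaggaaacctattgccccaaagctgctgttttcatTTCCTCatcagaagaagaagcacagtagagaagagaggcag

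The 5 genes whose pattern was most like that of Lyz2 among 15876 genes with a mean of at least 1 CPM were C1qb, C1qc, Ctss, C1qa and B2m, with r from 0.77 to 0.82 (65 mice, centred within suffix). The 3 C1q genes encode the complement subunits made by microglia, Ctss encodes cathepsin S, and B2m the light chain of MHC class I. The r of Lyz2 was 0.76 with the microglia sum, 0.71 with the sum of 16 other border macrophage genes and 0.36 with that of 14 other monocyte genes, and for Cybb these were 0.69, 0.69 and 0.39. Cybb, at a mean of 0.444 CPM, was too low for the same search.

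The genes around the members moved little outside LPS. Of the 16 other border macrophage genes, 8 had 0 counts in all CD mice, and none of those tested was called in depletion, early or late repopulation against CD (5, 6 and 7 tested) or in late repopulation against depletion. Siglec1, an interferon-inducible sialic acid receptor, rose in both LPS groups, from 0 to 1 counts in CD to 4 to 33 in LPSCD and 4 to 28 in LPSREPOP (FDR = 0.00428 and 0.000636). Stab1, a scavenger receptor, rose in LPSREPOP (log2 fold change 1.12, FDR = 0.00384). The median log2 fold change was 1.19 over the 8 genes of this list tested in LPSCD and 1.12 over the 7 tested in LPSREPOP. Over all genes it was 0.0097 and 0.015. A gene with 0 counts in CD could be tested only where enough LPS mice had a count. The medians are thus no measure of the whole list.

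Of the 14 other monocyte genes, Itgal (the integrin alpha L chain) rose in LPSREPOP (log2 fold change 2.36, FDR = 0.00513), and no other was called in either LPS group or in any pooled comparison. Of the 6 listed partners of Cybb in the NADPH oxidase, Rac2, a small GTPase of blood cells, rose in LPSCD (log2 fold change 2.93, FDR = 0.00681), from 0.282 ± 0.177 CPM in CD to 2.20 ± 0.620 CPM (SD, n = 5 and 3). None of the 5 tested in late repopulation against depletion was called, where their median was 0.27. Cyba, the membrane partner of gp91phox, was 1.77 ± 0.453 CPM in depletion (SD, n = 23) and 2.13 ± 0.698 CPM in late repopulation (SD, n = 12), with overlap.

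Among the ligands and receptors related to Ccr2, Ccr1 rose in late repopulation against depletion (log2 fold change 2.87, FDR = 5.57e-05), from 0 or 1 counts to 0 to 4. Ccr2 itself, the receptor that guides monocytes out of blood, had at most 1 count in each of the 65 mice and was tested only in REPOP3 and REPOP14 against CD, where it was not called.

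Ly6c2 differed between the deposited measures. It had 0 counts in 58 mice, of which 20 were listed above 1 FPKM, the highest at 7.96 FPKM. Without LPS the highest value in any mouse was 2.59 FPKM, in REPOP14 replicate 4, which had 1 count. Its exons share 14.5% of their 50-base stretches with other genes, 13.9% with Ly6c1, a paralog of endothelium, and Ly6c1 rose in LPSCD (log2 fold change 1.88, FDR = 0.00416) and LPSREPOP (1.53, FDR = 0.000852), from 16 to 29 counts in CD to 46 to 114 and 47 to 89. The level of Ly6c2 is uncertain, as the measures differ and the genes share sequence, and its counts, not its FPKM, were used. Lyz2 shares 15.4% of its stretches with Lyz1, and its counts may hold or lack such reads, whereas Mrc1, Lyve1, Pf4 and Cybb share none.

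**Figure D4:**
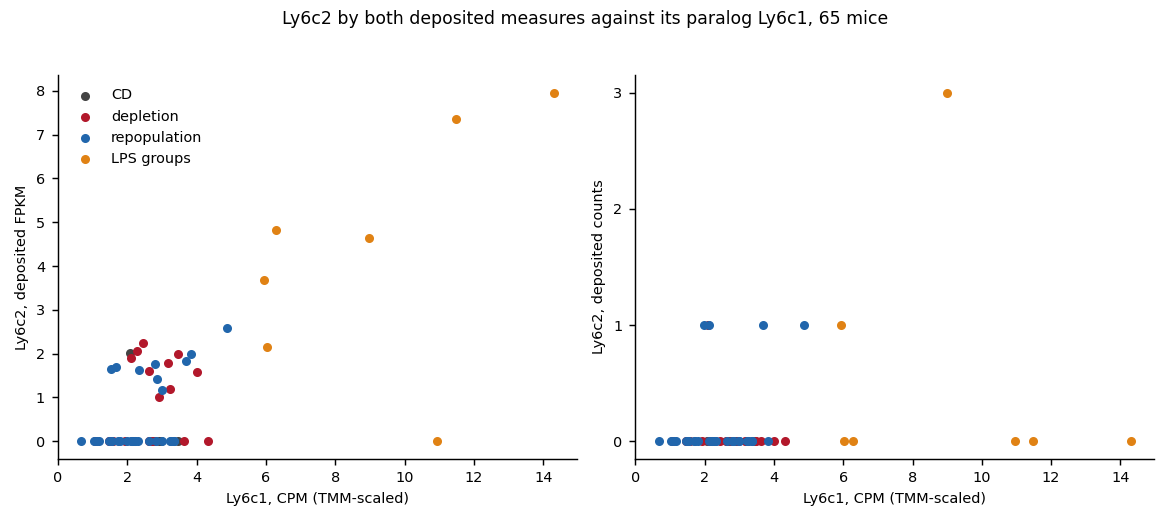
Ly6c2 in each of the 65 mice by deposited FPKM (left) and deposited counts (right) against Ly6c1 in CPM (horizontal axes). FPKM of Ly6c2 reaches 7.96 in LPSCD replicate 3, the mouse of highest Ly6c1 (14.3 CPM), but is 0 in LPSCD replicate 2 (10.9 CPM). The counts do not pass 3.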

How the data were processed

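Retinal RNA of 65 mice was sequenced as 50-base single-end reads. The authors aligned the reads to mm10 with HISAT2 and deposited counts per gene made with HTSeq, without normalization, and FPKM values made with StringTie from the same alignments. The strand setting is not given in the sources used here. All columns of both tables were assigned to samples.

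The 10 members, the gene lists and the tests were chosen with earlier results of these data known. Each of 20 comparisons was fitted on the counts with edgeR 4.0.16 in R 4.3.3 (TMM, quasi-likelihood F test, group as the only term, Benjamini-Hochberg FDR over all genes tested). A gene was tested where a share of at least 0.5 of the mice in 1 of the groups had a count, and a call needed FDR under 0.01 with a change of more than 1 on the log2 scale. The methods of the study add a batch term without naming the batches, so the title suffix was used in an alternative. Levels are CPM with TMM over all mice, correlations use log2(CPM + 1), and FPKM served only to compare genes per length.

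Ratios of summed counts carry exact (Clopper-Pearson) 95% intervals, which, like the floor of 3 counts over a group, cover counting error only. All members are named. A fitted change is given where a member was called or had an unadjusted p under 0.05, similar genes are the 5 of highest r for members with a mean of at least 1 CPM, and of each list at most 4 called genes are named. Some genes of the lists are not reported here.

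Replicate numbers come from the labels and mark different mice. Same-numbered mice correlated above 0.1 in every pair in 8 of 16 comparisons, REPOP21 against CD among them (lowest r 0.198). In those comparisons the same-numbered mice also shared a suffix, and differently numbered mice were not compared. The correlation is therefore no evidence of pairing, and the block is given only as an alternative. Alternatives were DESeq2 1.42.0, RLE, no filter, filterByExpr, the suffix, the block, 1 fit of all groups, FDR under 0.05 with no fold threshold, plain library totals, counts per kilobase and leaving out single mice. Those added after the data were seen were each suffix alone, no REPOP60 and no lowest library. The fits were tested on simulated data, and Python 3.11.15, pandas 2.3.3, numpy 2.4.6 and matplotlib 3.10.9 made tables and figures.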

Additional observations from a re-analysis of the deposited data

Results flagged for a closer look

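Of 33 groups of 4 to 10 mice with a mean above 3 counts of a member, 1 held a mouse far from the others. This was Ms4a7 in REPOP5, where replicate 2 had 0.238 CPM (2 counts) against 0.498 to 0.537 CPM in the other 3 mice. Chance alone marks about 1 group in 20.

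The effect of late repopulation differed from that of depletion for Lyz2 (log2 fold change between them 2.86) and Cybb (2.73), by the test of the difference itself.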

How the results depend on the processing

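Direction was compared for the fitted changes of members that were called or had an unadjusted p under 0.05. None of these reversed under an alternative that could test the member. Of 329 recomputed counts of called members, 320 stayed within 1.5 times the count reported. In LPSCD against CD, where 0 members were called, the alternatives gave 3 with FDR under 0.05 and no fold threshold, 3 with no gene filter, 3 with all 16 groups in one fit and 1 with DESeq2, which gave no adjusted p for Cybb and F13a1. Leaving out single mice gave 0 to 2 there. The replicate block gave 1 in LPSCD (Lyz2) and 1 in REPOP21 (Cybb), and it changed no other count. In late repopulation against depletion, where 2 were called, filterByExpr gave 0 and the re mice alone gave 1. The cause was not tested, except that filterByExpr left fewer genes, Cybb and Lyz2 not among them. Leave-one-out counts were 0 to 0 in the remaining comparisons with 0 calls and 2 to 2 in LPSREPOP against CD. In 35 fits a named member could not be tested. Plain library totals moved no group mean CPM by more than its SD, and counts per kilobase moved 1 mean per-length level in CD by more than the SD of the CD mice, that of Cd163 (from 0 to 0.00482). Within that SD, Ly6c2 went from 0.403 to 0 and Ccr2 from 0.0165 to 0.00769.

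Depth limits these results. Cd163, Pf4, Ccr2 and Ly6c2 had counts in 15, 8, 12 and 7 of the 65 mice, so no fold change is given for them, and ratios of Cybb to CD have wide intervals.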
